A study of Homo sapiens with 6 samples.

Results

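The unfolded protein response sensors and factors examined here were 10 genes out of the 19937 in the count table: ATF6, ATF6B, ERN1, XBP1, EIF2AK3, ATF4, DDIT3, PPP1R15A, TRIB3 and CREB3L2. They were taken by Ensembl identifier from a set list of symbols. That list, like the lists of related genes used below, was chosen with earlier results of these data known. All 10 were among the 12450 genes that passed the filter on low counts. The libraries came from U2OS, an established human osteosarcoma cell line, after squalene epoxidase (SQLE), the enzyme that oxidizes squalene in cholesterol synthesis, had been silenced. The 3 shSQLE libraries were from cells that stably carried a short hairpin against SQLE, and the 3 shControl libraries from cells with a scrambled hairpin. Both groups received their hairpin by lentivirus from the pGIPZ plasmid and were kept under puromycin at 2 µg/mL for 2 weeks, and no other treatment is named. Which of the study's hairpins against SQLE these libraries carried, and whether the cells were 1 clone or a pool, were not given in the sources used here.

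The unfolded protein response is how a cell answers a load of misfolded protein in the endoplasmic reticulum (ER). ATF6 and its paralog ATF6B are membrane proteins that are cut in the Golgi to release transcription factors. IRE1, the product of ERN1, splices the XBP1 mRNA so that it encodes an active factor. PERK, the product of EIF2AK3, phosphorylates the translation initiation factor eIF2, which slows most protein synthesis but favours translation of ATF4. ATF4 drives DDIT3 (the factor CHOP), TRIB3 (a pseudokinase that holds back ATF4 and AKT) and PPP1R15A (GADD34, which brings the phosphatase that reverses eIF2 phosphorylation). CREB3L2 is another membrane-bound factor that is cut in the same way as ATF6 and acts on genes for transport of secretory cargo. Counts per gene show only the amount of mRNA: cutting of ATF6, splicing of XBP1, phosphorylation of PERK or eIF2 and translation of ATF4 were not measured.

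Total counts on genes were 12212378 to 14393292 per library, and mitochondrial genes took 5.76% to 7.74% of them. SQLE (ENSG00000104549) had normalized counts of 1349, 1867 and 1924 in shControl against 229, 204 and 219 in shSQLE (replicates 1 to 3 of each), and its log2 fold change was -2.98 (adjusted p = 0.000299, edgeR's quasi-likelihood test). A normalized count is the count scaled to the mean effective library size. Of the markers of the osteoblast lineage, SP7 and IBSP had no count in any library and ALPL, COL1A2 and BGLAP had at most 6, whereas RUNX2 lay at 10.3 to 17.7 CPM (counts scaled to a fixed library total) and SPARC at 375 to 495 CPM. COL1A1 (7.32 to 12.8 CPM) was lower in shSQLE, with a log2 fold change of -0.65 (adjusted p = 0.0452), and SPP1 (4.91 to 8.44 CPM) had one of 0.19 (adjusted p = 0.748). The summed level of the 9 osteoblast markers was 478 to 533 CPM in shControl and 402 to 418 CPM in shSQLE, and its part in the results was not tested. The leukocyte marker PTPRC had no count, and the mesenchymal marker VIM lay at 2773 to 3293 CPM. Of the epithelial markers, CDH1 had at most 2 counts and EPCAM 46 to 76, with all shSQLE libraries above the shControl libraries on the normalized scale (log2 fold change 0.40, adjusted p = 0.362). The endothelial marker PECAM1 had 2 to 15 counts and lay lower in shSQLE (log2 fold change -1.67, adjusted p = 0.0933). shControl replicate 1 stood apart from the other control libraries: its counts gave a chi-square per degree of freedom of 51.3 and 60.8 against theirs, where sampling alone gives about 1, and the value was 2.76 between shControl replicates 2 and 3. Counts of calls are therefore given with and without it. The sources do not say whether replicates were separate cultures, so the p-values measure only the spread between these libraries.

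Promoters were read because they carry the sites by which these factors are known to act on one another and on the chaperone genes. All 10 genes had an entry among the RefSeq promoters (GRCh38.p14), and the 250 bases before each start were searched on both strands for the ER stress response element (ERSE, CCAAT, 9 bases of any kind, then CCACG), an element that ATF6 binds together with NF-Y and that XBP1 can also bind. The search also took in ERSE-II (ATTGG, 1 base, CCACG), the unfolded protein response element (TGACGTGG), the cyclic AMP response element (CRE, TGACGTCA, which shares its first 6 letters with the element before it) and the C/EBP-ATF response element (TGATG, 1 base, AAT). ERSE was found in 1 of the 10 genes, XBP1, and in 0.0916% of the 27305 genes with a promoter entry (0.074% of the 35116 promoter windows of the genome). CRE was found in CREB3L2 and PPP1R15A and in 1.65% of all windows. None of the 10 held ERSE-II (0.0513% of all windows), the unfolded protein response element (0.612%) or the C/EBP-ATF response element (0.888%). Among 23 known target genes of ATF4 and CHOP with a promoter entry, GARS1 alone held the C/EBP-ATF response element. The exact form within 250 bases thus missed most of them, so its absence does not show that a gene lacks a site for ATF4. Stretches of 3 promoters are shown, for the factor with the exact element and for the pair of genes that passed the test below, with the matching letters in capitals. They lie before the start on the - strand, at chr22:28800598-28800819 (XBP1), chr7:138002087-138002323 (CREB3L2) and chr12:57520518-57520709 (DDIT3), with bases that meet an exon of a protein-coding gene left off.
XBP1: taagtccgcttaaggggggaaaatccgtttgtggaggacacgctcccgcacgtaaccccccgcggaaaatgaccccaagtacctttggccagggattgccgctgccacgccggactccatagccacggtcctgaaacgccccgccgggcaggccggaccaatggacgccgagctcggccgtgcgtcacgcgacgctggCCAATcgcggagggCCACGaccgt
CREB3L2: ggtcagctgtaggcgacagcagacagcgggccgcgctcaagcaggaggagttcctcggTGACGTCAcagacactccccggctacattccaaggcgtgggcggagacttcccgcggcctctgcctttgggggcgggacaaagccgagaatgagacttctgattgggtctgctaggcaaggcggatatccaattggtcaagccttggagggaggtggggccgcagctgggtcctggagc
DDIT3: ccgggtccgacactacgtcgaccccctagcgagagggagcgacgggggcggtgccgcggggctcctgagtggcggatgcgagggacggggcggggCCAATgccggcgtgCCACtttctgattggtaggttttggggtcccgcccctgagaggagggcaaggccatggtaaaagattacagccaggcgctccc

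DDIT3 held ERSE in a form that lacks 1 of its 10 set letters. With positions counted from 1 at the 5′ end of the element, the site on the strand of the gene (chr12:57520596-57520614) differed by G19T, and a second site on the other strand (chr12:57520586-57520604), which overlaps it, differed by C15G. This looser form was looked for after the values had been seen, and 1.67% of all genes with a promoter entry (1.36% of all windows) held it or the exact form. Among known ATF6-type target genes, 5 of the 11 with a promoter entry held the exact element (CALR, CRELD2, HSP90B1, HSPA5 and PDIA6), as did SERP1 among 14 XBP1-type targets. Exact elements and those of DDIT3 are lined up below, both of those in HSP90B1 included, to show how the letters between the set ends differ, with the set letters in capitals and any mismatch in lower case.
XBP1: CCAATcgcggagggCCACG
DDIT3, strand of the gene: CCAATgccggcgtgCCACt
DDIT3, other strand: CCAATcagaaagtggCACG
HSPA5: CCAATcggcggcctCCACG
HSP90B1, farther from the start: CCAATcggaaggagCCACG
HSP90B1, nearer to the start: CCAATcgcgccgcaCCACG
PDIA6: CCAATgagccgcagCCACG
CRELD2: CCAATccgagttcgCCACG
CALR: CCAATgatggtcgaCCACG
SERP1: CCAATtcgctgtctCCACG

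The levels of the 10 genes were set side by side per kilobase (kb) of the canonical transcript (GENCODE v44), since longer transcripts collect more reads. In shControl, ATF4 had by far the highest level, with a mean of 3709 normalized counts per kb, followed by PPP1R15A at 995 and XBP1 at 865. TRIB3 (338), DDIT3 (314) and ATF6B (258) formed the middle, and ATF6 (100), CREB3L2 (90.0), EIF2AK3 (75.7) and ERN1 (26.7) the lower end. Neighbours in this order whose libraries overlapped were PPP1R15A and XBP1, TRIB3 and DDIT3, DDIT3 and ATF6B, ATF6 and CREB3L2, and CREB3L2 and EIF2AK3. In shSQLE the order was ATF4 at 4936 normalized counts per kb, PPP1R15A at 957, XBP1 at 749, ATF6B at 258, TRIB3 at 190, DDIT3 at 108, ATF6 at 87.0, CREB3L2 at 53.9, EIF2AK3 at 47.6 and ERN1 at 23.4. Only DDIT3 and ATF6 overlapped there. DDIT3 and TRIB3 thus stood above ATF6B in mean level in shControl and below it in shSQLE. In both groups ERN1 stood below XBP1, and EIF2AK3 below ATF4.

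Silencing of SQLE was accompanied by a lower level of DDIT3 and CREB3L2, while the sensors ATF6, ATF6B, ERN1 and EIF2AK3 did not pass the test. EIF2AK3 came closest of these sensors, with a log2 fold change of -0.67 (adjusted p = 0.0630, edgeR's quasi-likelihood test). DESeq2 called it lower (adjusted p = 0.00832), beside 555 of 15995 genes. Of the 10 genes, 2 were lower in shSQLE at an adjusted p under 0.05 (DDIT3 and CREB3L2), where 2.84% of all genes tested were lower. None was higher by edgeR's quasi-likelihood test, where 0.369% of all genes were. ATF4 alone was higher at an unadjusted p under 0.05, and DESeq2 called 0 of the 10 higher. The log2 fold change was negative for 9 genes and positive for ATF4, with a median of -0.20 against -0.01 over all genes tested. In 6 genes (ERN1, XBP1, EIF2AK3, DDIT3, TRIB3 and CREB3L2) all shSQLE libraries lay below all shControl libraries, as 12.1% of all genes did. In none did every shSQLE library lie above, as 10.0% of all genes did. In bulk libraries such as these, fewer cells that express a gene and less mRNA per cell cannot be told apart.

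**Figure D1:**
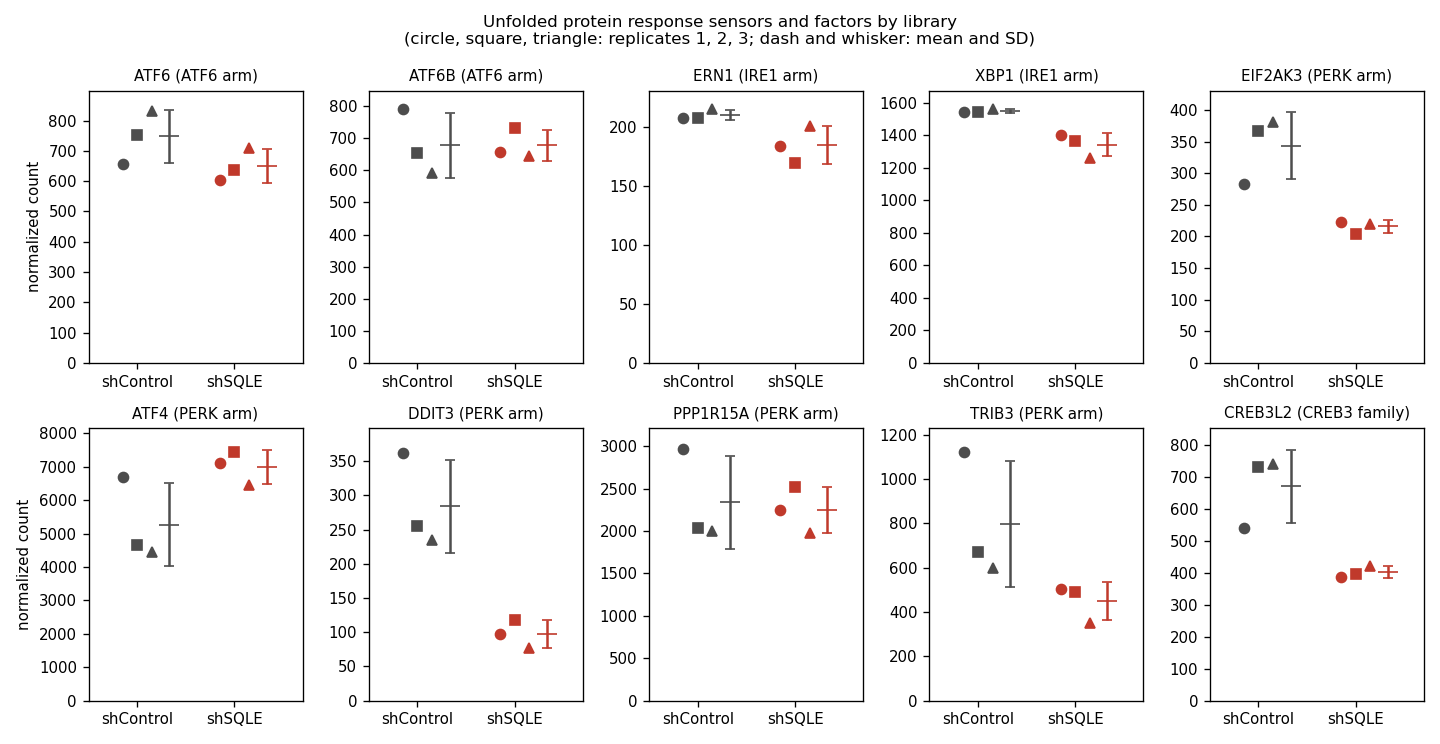
Normalized count (vertical axes, each from 0) of each of the 10 genes in the 3 shControl and 3 shSQLE libraries, with replicates 1, 2 and 3 as circle, square and triangle, and the mean with its SD beside them. The groups do not overlap for DDIT3 (234 to 361 against 77.1 to 118) or CREB3L2 (539 to 741 against 385 to 421), and they overlap for ATF6, ATF6B, ATF4 and PPP1R15A.

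The number of genes past the test depended on shControl replicate 1. Without it, with the spread pooled over the 5 libraries left, 5 of the 10 were lower (ATF6, EIF2AK3, DDIT3, TRIB3 and CREB3L2) and ATF4 was higher, but 18.3% of all genes tested were then lower and 15.6% higher. Offsets for GC content and transcript length within each library gave 5 lower genes (XBP1, EIF2AK3, DDIT3, TRIB3 and CREB3L2) and again ATF4 higher, beside 8.58% of all genes lower and 12.3% higher. DDIT3 and CREB3L2 were lower in all of these fits. Without shSQLE replicate 1, 0 of the 10 were lower, beside 105 of 12573 genes. Without shSQLE replicate 3 the number was again 0, beside 101 of 12610 genes. CREB3L2 also lost its call with library size only (adjusted p = 0.0624, edgeR's quasi-likelihood test), beside 368 of 12450 genes lower. With all 6 libraries, the study's form of limit on size was then added. It was worked out here from the edgeR fit, whereas the study used DESeq2. The limit was an absolute log2 fold change over 0.97, the mean of the absolute values of all genes with 2 SD added. It left DDIT3 as the only one of the 10, among 2.10% of all genes lower by that rule.

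**Figure D2:**
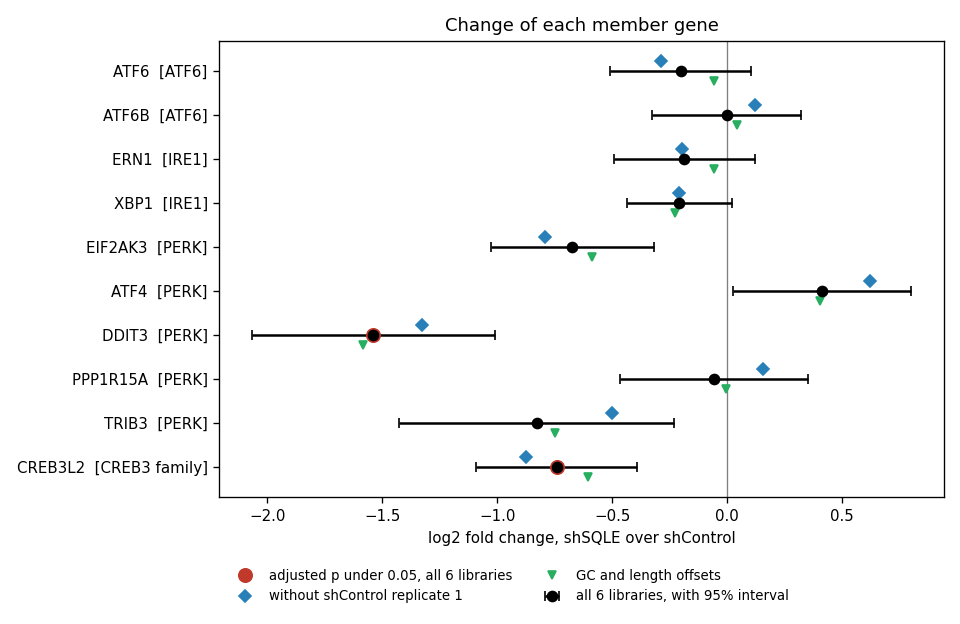
Log2 fold change of each gene, shSQLE over shControl, with all 6 libraries (black, bar for the 95% confidence interval, red ring for an adjusted p under 0.05), without shControl replicate 1 (blue diamonds) and with GC and length offsets (green triangles). DDIT3 is lowest with -1.54 (interval -2.06 to -1.01), CREB3L2 has -0.74, and ATF4 is the only gene right of 0 with all libraries (0.41).

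In the ATF6 arm, neither sensor passed the test. ATF6 (ENSG00000118217, + strand, chr1:161766298-161977574, 16 exons) had 657, 753 and 833 normalized counts in shControl replicates 1 to 3 and 603, 637 and 710 in shSQLE replicates 1 to 3, the order used for each gene that follows. The shSQLE libraries lay lower on average, but the groups overlapped, since shSQLE replicate 3 exceeded shControl replicate 1. The log2 fold change was -0.20 (standard error 0.13, 95% confidence interval -0.51 to 0.10, adjusted p = 0.575). Without shControl replicate 1 it was -0.29 (adjusted p = 0.0403). ATF6B (ENSG00000213676, - strand, chr6:32115264-32128253, 18 exons), whose cut form is held to be the weaker activator, had 790, 654 and 592 normalized counts in shControl and 658, 732 and 643 in shSQLE. Its groups lay on top of each other, with means of 679 ± 101 (SD, n = 3) and 678 ± 47.7 (SD, n = 3), and the 95% confidence interval of its log2 fold change ran from -0.32 to 0.32. ATF6B overlaps TNXB on the same strand, and TNXB had 58.8 to 75.1 normalized counts in shControl and 26.6 to 48.3 in shSQLE.

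Most of the genes on which ATF6 is known to act, ER chaperones and degradation factors, were lower in shSQLE. Of 12 such genes tested, 8 fell and 0 rose at an adjusted p under 0.05, beside 2.84% of all genes lower. All 12 had a negative log2 fold change, with a median of -1.18, and in all 12 the groups did not overlap with shSQLE lower, as in 12.1% of all genes. HSPA5 (BiP, the main ER chaperone and the protein that holds the sensors inactive) had 34082 ± 506 normalized counts in shControl and 10800 ± 510 in shSQLE (SD, n = 3) and a log2 fold change of -1.66 (SE 0.10, adjusted p = 0.000299). HSP90B1 (GRP94, the ER member of the HSP90 family) went from 32908 ± 3666 to 13194 ± 597 (log2 fold change -1.32, adjusted p = 0.00157), and PDIA4, a protein disulfide isomerase, from 5699 ± 63.1 to 2538 ± 77.4 (log2 fold change -1.17, adjusted p = 0.000979). CRELD2, HERPUD1, SEL1L, HYOU1 and PDIA6 were the others past the test. Without shControl replicate 1 all 12 were lower at an adjusted p under 0.05, beside 18.3% of all genes. The mRNA of ATF6 was at 86.9% of its control mean and that of HSPA5 at 31.7%.

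In the IRE1 arm, both genes lay lower in every shSQLE library by a small amount that did not pass the test. ERN1 (ENSG00000178607, - strand, chr17:64039080-64130819, 22 exons), the sensor with kinase and RNase domains, had 208, 208 and 216 normalized counts in shControl and 184, 170 and 201 in shSQLE. The highest shSQLE library came close to the lowest shControl library. Its log2 fold change was -0.19 (standard error 0.13, 95% confidence interval -0.49 to 0.12, adjusted p = 0.614). XBP1 (ENSG00000100219, - strand, chr22:28794555-28800597, 6 exons) had 1543, 1539 and 1564 normalized counts in shControl, a spread smaller than in any other of the 10 genes relative to its mean, and 1400, 1361 and 1262 in shSQLE. Every shSQLE library lay below, with a log2 fold change of -0.21 (standard error 0.10, interval -0.44 to 0.02, adjusted p = 0.405). With GC and length offsets it was -0.23 (adjusted p = 0.0482). XBP1 was the one gene of the 10 with an exact ERSE in its promoter, shown above.

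Of the genes on which XBP1 is known to act, for ER folding, transport and degradation, a smaller number passed the test. Of 15 tested, 5 fell (DNAJB9, DNAJB11, DNAJC3, SEC24D and SERP1) and 0 rose, beside 2.84% of all genes lower. All 15 had a negative log2 fold change, and the median was -0.48. The groups did not overlap in 10 of them, with shSQLE lower, as in 12.1% of all genes. They overlapped in EDEM2, SEC61B, SSR3, SRPRB and LMAN1. Without shControl replicate 1, 10 of the 15 fell and 0 rose, by edgeR's quasi-likelihood test, beside 18.3% of all genes lower. DNAJB9 (ERdj4, a co-chaperone that returns IRE1 to its inactive state) had 253 ± 45.2 normalized counts in shControl and 75.5 ± 4.04 in shSQLE (SD, n = 3), with -1.74 on the log2 scale (standard error 0.18, adjusted p = 0.00248). DNAJC3 (p58IPK, a co-chaperone that also restrains eIF2 kinases) went from 1717 ± 277 to 742 ± 74.4 (log2 fold change -1.21, adjusted p = 0.00591), and DNAJB11, another ER co-chaperone, from 2970 ± 90.8 to 1747 ± 53.4 (log2 fold change -0.77, adjusted p = 0.00564). DNAJB11 lost its call when any 1 shSQLE library was left out, and DNAJC3 without shSQLE replicate 1. Of 4 mRNAs that IRE1 is known to cut, COL6A1 fell (2428 ± 251 to 746 ± 58.8, log2 fold change -1.70, adjusted p = 0.000696), beside 2.84% of all genes lower. The 3 that did not pass were SPARC at -0.28 (adjusted p = 0.185), SCARA3 at 0.22 (adjusted p = 0.653) and BLOC1S1 at 0.13 (adjusted p = 0.894). Without shControl replicate 1, COL6A1 and SPARC were lower (SPARC -0.28, adjusted p = 0.0113) and SCARA3 was higher (0.37, adjusted p = 0.0430). In that fit 18.3% of all genes were lower and 15.6% higher. With GC and length offsets SPARC was again lower (-0.23, adjusted p = 0.0396), beside 8.58% of all genes. COL6A1 encodes a chain of collagen VI, a protein of the extracellular matrix.

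**Figure D3:**
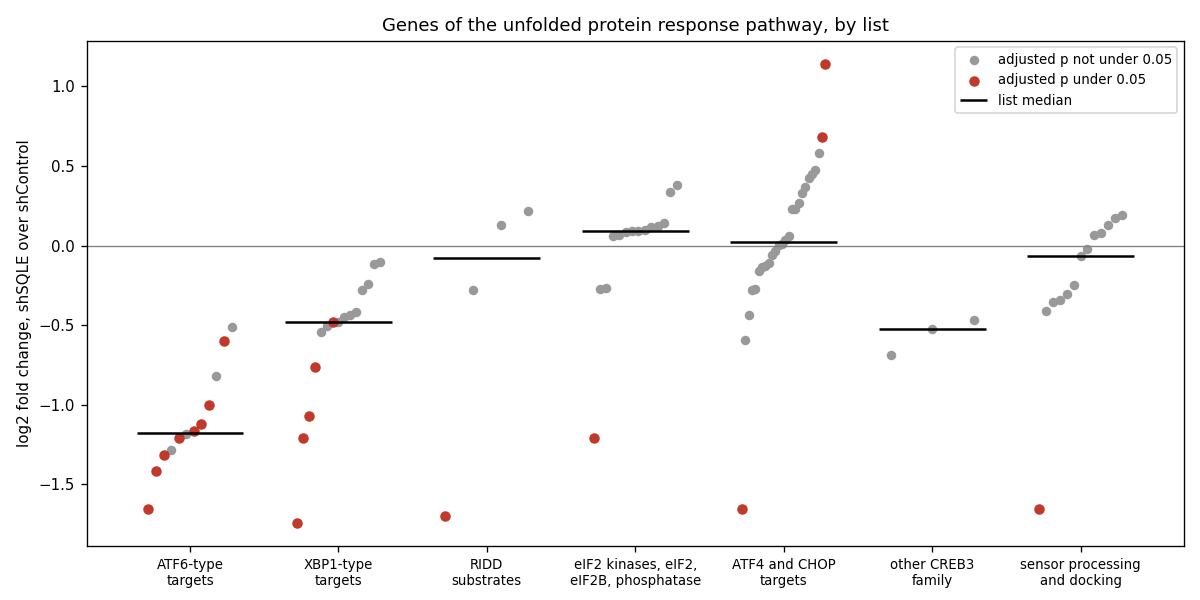
Log2 fold change (vertical axis, shSQLE over shControl) of each gene tested in 7 lists around the 10 genes, with red for an adjusted p under 0.05 and a bar at the median of each list. All ATF6-type and XBP1-type targets lie below 0 (medians -1.18 and -0.48), while the ATF4 and CHOP targets spread to both sides (median 0.02); HSPA5 and DNAJC3 belong to 2 lists each.

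The PERK arm held the most negative log2 fold change of the 10 genes and the only positive one. EIF2AK3 (ENSG00000172071, - strand, chr2:88556741-88691518, 17 exons) had 283, 366 and 382 normalized counts in shControl and 223, 204 and 220 in shSQLE. All shSQLE libraries lay below all shControl libraries, with shControl replicate 1 nearest to them. The log2 fold change was -0.67 (standard error 0.15, interval -1.03 to -0.32), and the adjusted p of 0.0630 did not pass. It was -0.79 (adjusted p = 0.00027) without shControl replicate 1, -0.59 (adjusted p = 0.00153) with GC and length offsets and -0.66 (adjusted p = 0.00832) with DESeq2.

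ATF4 (ENSG00000128272, + strand, chr22:39519695-39522683, 3 exons) lay the other way, with 6686, 4667 and 4434 normalized counts in shControl and 7111, 7455 and 6446 in shSQLE. The groups overlapped through shControl replicate 1, which lay above shSQLE replicate 3, while the other shControl libraries lay well below all shSQLE libraries. The log2 fold change was 0.41 (standard error 0.17, interval 0.03 to 0.80, adjusted p = 0.300). It was 0.62 (adjusted p = 0.000217) without shControl replicate 1 and 0.40 (adjusted p = 0.00129) with GC and length offsets.

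DDIT3 (ENSG00000175197, - strand, chr12:57516588-57521737, 4 exons), which encodes the factor CHOP that favours cell death under lasting stress, had 361, 256 and 234 normalized counts in shControl and 96.9, 118 and 77.1 in shSQLE. The groups were far apart, and shSQLE averaged 34.3% of the shControl mean. The log2 fold change was -1.54 (standard error 0.23, interval -2.06 to -1.01, adjusted p = 0.0124), and the raw counts behind it were 75 to 120 in shSQLE and 239 to 313 in shControl. It ranged from -1.70 to -1.33 over the fits that left out 1 library, and the call was lost without shSQLE replicate 1 (adjusted p = 0.0844) and without shSQLE replicate 3 (adjusted p = 0.0854). DDIT3 overlaps MARS1 and MBD6 on the opposite strand. MARS1 had 2416 to 2810 normalized counts in shControl and 3251 to 3656 in shSQLE, the opposite direction to DDIT3, and its log2 fold change of 0.43 did not pass (adjusted p = 0.0886). MBD6 had a log2 fold change of 0.02.

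PPP1R15A and TRIB3 are both feedback genes of this arm. PPP1R15A (ENSG00000087074, + strand, chr19:48872212-48876059, 3 exons) had 2970, 2037 and 2005 normalized counts in shControl and 2251, 2518 and 1974 in shSQLE. Its groups overlapped throughout, with a log2 fold change of -0.06 (standard error 0.18, interval -0.47 to 0.35, adjusted p = 0.930). TRIB3 (ENSG00000101255, + strand, chr20:362835-397559, 4 exons) had 1120, 669 and 598 normalized counts in shControl and 505, 490 and 348 in shSQLE. The shSQLE libraries all lay lower, but shControl replicate 1 stood so far above the other control libraries that the spread was wide, and the log2 fold change of -0.83 (standard error 0.26, interval -1.43 to -0.23) did not pass (adjusted p = 0.173). It was -0.50 (adjusted p = 0.0151) without shControl replicate 1 and -0.75 (adjusted p = 0.00229) with GC and length offsets.

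ATF4 and the genes it drives were then read within each library, a scale chosen after the values had been seen and given without a test. DDIT3 counts were 5.41%, 5.48% and 5.29% of the ATF4 count in shControl and 1.36%, 1.59% and 1.20% in shSQLE. TRIB3 counts were 16.8%, 14.3% and 13.5% of the ATF4 count in shControl and 7.11%, 6.57% and 5.40% in shSQLE. PPP1R15A counts were 44.4%, 43.7% and 45.2% in shControl and 31.7%, 33.8% and 30.6% in shSQLE. On this scale the groups did not overlap for any of these genes, and shControl replicate 1 lay with the other control libraries for DDIT3 and PPP1R15A but still above them for TRIB3. The shSQLE mean was 25.6% of the shControl mean for DDIT3, 42.8% for TRIB3 and 72.1% for PPP1R15A. ATF4 itself averaged 133% of its shControl mean in shSQLE, so a gene without change also reads lower on this scale. PPP1R15A averaged 96.2% of its shControl mean in normalized counts, and its groups overlapped there. How many of all genes separate on this scale was not counted.

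**Figure D4:**
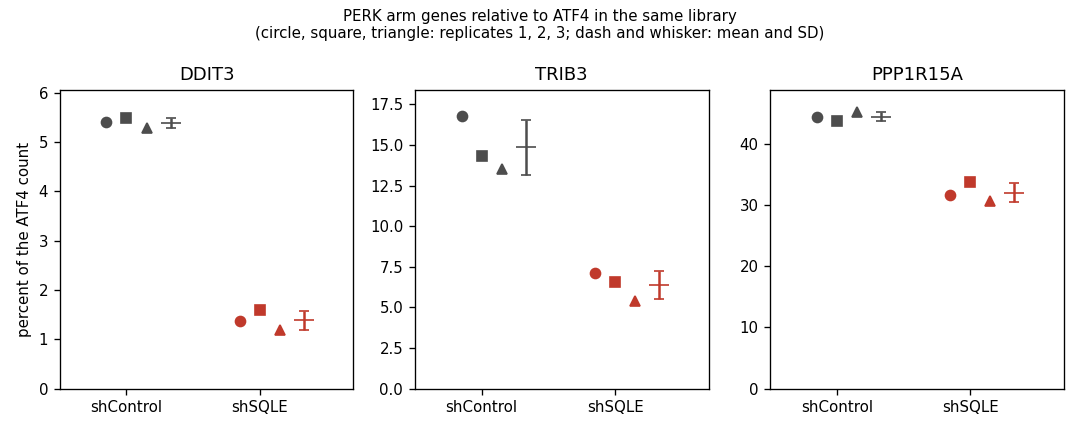
Counts of DDIT3, TRIB3 and PPP1R15A as a percent of the ATF4 count of the same library (vertical axes, each from 0), with replicates 1, 2 and 3 as circle, square and triangle and the mean with its SD beside them. The shControl libraries sit at 5.29% to 5.48% for DDIT3 and the shSQLE libraries at 1.20% to 1.59%, and the groups are apart for the other genes too. ATF4 averaged higher in shSQLE, which lowers every percent there.

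Further targets of ATF4 and CHOP lay on both sides of 0. Of 26 tested, 1 fell (ATF3) and 2 rose (PHGDH and SLC7A5), beside 2.84% of all genes lower and 0.369% higher. Of these 26, 11 had a negative and 15 a positive log2 fold change, and the median was 0.02. ATF3, a stress-induced factor of the same family, had 195 ± 21.7 normalized counts in shControl and 61.6 ± 13.5 in shSQLE (SD, n = 3), with -1.65 on the log2 scale (standard error 0.20, adjusted p = 0.00504). PHGDH, the first enzyme of serine synthesis, went from 19008 ± 5446 to 42003 ± 5386 (log2 fold change 1.14, adjusted p = 0.0253), and SLC7A5, the large neutral amino acid transporter, from 3239 ± 361 to 5201 ± 302 (log2 fold change 0.68, adjusted p = 0.0211). Both lost their call whenever a library other than shControl replicate 1 was left out. The groups did not overlap in 6 genes that lay higher in shSQLE: PHGDH, PSAT1 and MTHFD2 of serine and one-carbon metabolism, the transporter SLC7A5, and the tRNA synthetases CARS1 and GARS1. They did not overlap in 4 that lay lower, ATF3, DDIT4, BBC3 and WARS1, where 12.1% of all genes did so lower and 10.0% higher. These genes are named here because of their values. Without shControl replicate 1, 9 of the 26 rose and 2 fell, beside 15.6% of all genes higher and 18.3% lower in that fit.

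Genes around eIF2 itself were counted in the same way, beside 2.84% of all genes lower and 0.369% higher with all libraries. Of 14 genes for the other eIF2 kinases, the subunits of eIF2 and eIF2B, the phosphatase adaptor PPP1R15B and the regulators NCK1 and DNAJC3, 1 fell (DNAJC3) and 0 rose by edgeR's quasi-likelihood test, with a median of 0.09. EIF2S2, the beta subunit of eIF2, had 5072 ± 220 normalized counts in shControl and 6407 ± 31.2 in shSQLE (SD, n = 3), a log2 fold change of 0.34 that did not pass (adjusted p = 0.116). EIF2B3, a subunit of the exchange factor eIF2B, had a log2 fold change of 0.38 (adjusted p = 0.212). In both genes the groups did not overlap, with shSQLE higher, as in 10.0% of all genes. Of the 14, 3 fell and 3 rose without shControl replicate 1, beside 18.3% of all genes lower and 15.6% higher in that fit. Among those that rose were EIF2S2 (0.31, adjusted p = 0.0075) and EIF2B3 (0.48, adjusted p = 0.00299). Both also rose with GC and length offsets (adjusted p = 0.00165 and 0.00898), where 12.3% of all genes were higher. EIF2S2 rose with DESeq2 as well (adjusted p = 0.0154).

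CREB3L2 (ENSG00000182158, - strand, chr7:137874979-138002086, 12 exons), which stands outside the classical arms, had 539, 730 and 741 normalized counts in shControl and 385, 397 and 421 in shSQLE. The groups did not overlap, the shSQLE libraries lay close together, and shSQLE averaged 59.9% of the shControl mean. The log2 fold change was -0.74 (standard error 0.15, interval -1.09 to -0.39, adjusted p = 0.0428). It ranged from -0.87 to -0.65 over the fits that left out 1 library, but of these only the fit without shControl replicate 1 kept the call (adjusted p = 2.9e-05), and the others gave an adjusted p of up to 0.240. With all libraries, no other tested member of its family passed the test. CREB3L1, which like CREB3L2 acts on matrix and secretory genes, had a log2 fold change of -0.69 (adjusted p = 0.180), CREB3L4 of -0.52 (adjusted p = 0.199) and CREB3 of -0.47 (adjusted p = 0.402). With GC and length offsets all 3 were lower (adjusted p = 0.0160, 0.0137 and 0.0113), beside 8.58% of all genes. Without shControl replicate 1 CREB3L4 alone was lower (-0.41, adjusted p = 0.0466), beside 18.3% of all genes. CREB3L3 did not pass the filter on low counts.

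Of the genes that process or hold the sensors, HSPA5 alone passed with all libraries, where 2.84% of all genes were lower. Of 13 tested (among them the proteases MBTPS1 and MBTPS2 that cut ATF6 and CREB3L2, the ligase RTCB that joins XBP1 mRNA, and the NF-Y subunits that bind CCAAT), 1 fell and 0 rose by edgeR's quasi-likelihood test, with a median of -0.06. TMED2, a cargo receptor between ER and Golgi, had a log2 fold change of -0.41 (adjusted p = 0.103), with the shSQLE libraries all below the shControl libraries. WFS1, an ER membrane protein that restrains ATF6, had a log2 fold change of -0.34 (adjusted p = 0.437), and its groups overlapped. Of the 13, 4 fell and 1 rose without shControl replicate 1, beside 18.3% of all genes lower and 15.6% higher. With GC and length offsets 3 fell and 0 rose, with a median of 0.05, beside 8.58% of all genes lower and 12.3% higher. TMED2 was lower in both fits (-0.49, adjusted p = 0.000421, and -0.37, adjusted p = 0.00165) and with DESeq2 (adjusted p = 0.0385).

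The arms were compared gene by gene through the difference of 2 genes' log2 CPM within each library, in 6 pairs with a two-sided exact permutation test. With 3 libraries against 3 the smallest exact permutation p is 0.1, so no pair could reach 0.05. The values adjusted over the 6 pairs stand beside each p. EIF2AK3 lay lower beside the sensors ATF6 and ERN1, in pairs that share its values, and ATF6B was not paired. The ATF6-to-EIF2AK3 difference was 0.46 higher in shSQLE, with 1.12 ± 0.09 against 1.58 ± 0.14 (SD, n = 3), and the ERN1-to-EIF2AK3 difference 0.47 higher, with -0.69 ± 0.21 against -0.22 ± 0.08. In both the libraries were separate (exact permutation p = 0.1, adjusted p = 0.2). The XBP1-to-ATF4 difference was -1.74 ± 0.33 in shControl and -2.38 ± 0.06 in shSQLE (difference -0.64, exact permutation p = 0.1, adjusted p = 0.2). The ATF6-to-ATF4 difference was -0.63 apart, with overlap through shControl replicate 1 (exact permutation p = 0.2, adjusted p = 0.3). The ATF6-to-ERN1 and ATF6-to-XBP1 differences were -0.01 and 0.01 apart, and their libraries overlapped (exact permutation p = 1 and 0.9). The median log2 fold change was -0.10 over the 2 ATF6 arm genes, -0.20 over the 2 IRE1 arm genes and -0.67 over the 5 PERK arm genes.

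Between shControl replicate 1 and the mean of shControl replicates 2 and 3, the 10 genes did not differ alike. TRIB3 stood highest, 0.82 above on the log2 CPM scale, followed by DDIT3, ATF4 and PPP1R15A, while CREB3L2 lay lowest at -0.45, below EIF2AK3 (-0.40) and ATF6 (-0.27). XBP1 (-0.01) and ERN1 (-0.03) were near 0. Across the 10 genes this gap went with the GC content of the transcript, from 41.2% in ATF6 to 61.5% in TRIB3, with Pearson's r of 0.83 and Spearman's rho of 0.77, and over 12447 genes the same values were 0.72 and 0.74. These describe 1 library against the same pair of libraries, and the genes are not independent replicates. The gap also went with transcript length (Spearman's rho of -0.72 over the 10 genes and -0.56 over all). What set this library apart was not tested.

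**Figure D5:**
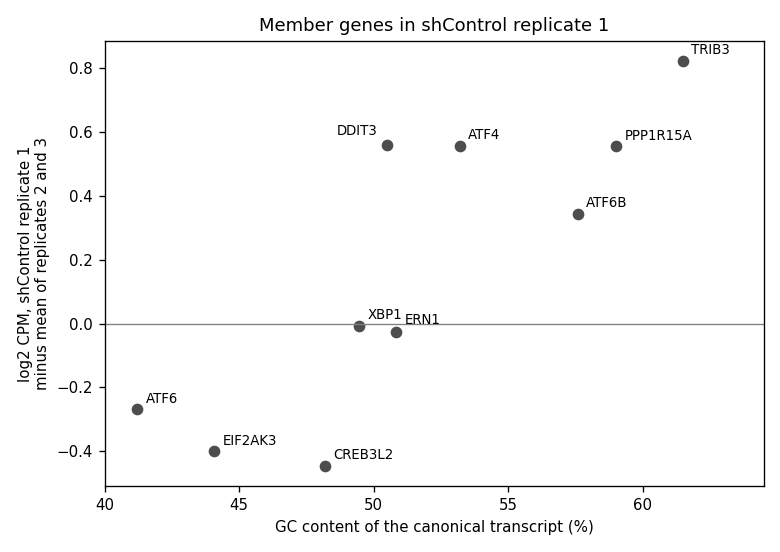
Log2 CPM of each of the 10 genes in shControl replicate 1 minus the mean of shControl replicates 2 and 3 (vertical axis) against the GC content of its canonical transcript in percent (horizontal axis). Genes of low GC content (ATF6, EIF2AK3, CREB3L2) lie below 0 and those of high GC content (ATF6B, PPP1R15A, TRIB3) above it, with TRIB3 highest at 0.82.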

How the data were processed

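Poly(A) RNA of 6 U2OS libraries, 3 shSQLE and 3 shControl, was read as pairs of 151 bp. According to the processing notes and the methods, the authors used fastp 0.20.0 for trimming, STAR 2.7.9a for alignment (hg38) and featureCounts 2.0 for counting. What they deposited are raw counts per gene. The annotation release, the use of strand and the handling of multi-mapping reads were not given in the sources used here, so genes that overlap another counted gene (DDIT3, ATF6B, HSP90B1, DNAJB11, EIF2S2, CREB3 and CREB3L4) are less certain.

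Gene symbols, positions, transcript length and GC content came from GENCODE v44 (hg38), and 32 identifiers matched no symbol. Counts were analysed in R 4.3.3 with edgeR 4.0.16: filterByExpr, TMM factors, the quasi-likelihood test of shSQLE against shControl with no covariate, and p-values adjusted by Benjamini-Hochberg over all 12450 genes tested at 0.05. Log2 CPM used a prior count of 2, and permutation tests used scipy 1.17.1. A value "without" a library pools the spread of those left. Alternatives were DESeq2 1.42.0, other size factors and filters, a replicate block, GC and length offsets (mgcv 1.9.3), leaving out each library and a prior count of 0.5. The 10 genes, the 7 lists around them and the promoter search were chosen with earlier results of these data known. Named besides the 10 genes and SQLE are the genes with the smallest p in each list, at most 3, and genes named for their values where so stated. BLOC1S1 is named as the remaining tested mRNA that IRE1 is known to cut.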

Additional observations from a re-analysis of the deposited data

How the results depend on the processing

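Counting error weighs most on DDIT3, which had as few as 75 counts in a library. Of 130 values of the 10 genes under alternatives, 8 lost and 10 gained a call, and 10 changed direction, all in ATF6B or PPP1R15A, whose intervals span 0. ATF6B went to 0.0148 with DESeq2, 0.0104 with RLE size factors, 0.0032 with no filter, 0.0065 with the replicate block and 0.0442 with GC and length offsets, and ranged from -0.0785 to 0.12 when 1 library was left out, as PPP1R15A did from -0.14 to 0.15.

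Leaving out 1 library gave 0 to 5 lower and 0 to 1 higher of the 10 genes, 101 to 2300 lower and 4 to 1964 higher of all genes, 5 to 12 lower ATF6-type targets, 1 to 10 lower XBP1-type targets, 1 to 2 lower and 0 to 9 higher ATF4 and CHOP targets, and a PERK arm median of -0.70 to -0.50. The highest of these counts all came without shControl replicate 1. The ATF6-to-ERN1 difference ranged from -0.0906 to 0.0531 and the ATF6-to-XBP1 difference from -0.10 to 0.0943. GC and length offsets gave 5 lower and 1 higher of the 10 genes, 1068 lower and 1535 higher of all genes, 12 lower XBP1-type targets, 4 lower and 9 higher ATF4 and CHOP targets, an ATF6 arm median of -0.0072 and an IRE1 arm median of -0.14, and a median over all genes of 0.06 in place of -0.01. DESeq2 gave 3 lower of the 10 genes, 555 lower and 153 higher of 15995 genes and 6 higher ATF4 and CHOP targets. Library size only gave 1 lower of the 10 genes, 3 lower XBP1-type targets and an IRE1 arm median of -0.24, beside 368 lower of 12450 genes. At least 10 counts in every library gave 3 lower XBP1-type targets, beside 263 lower of 11872 genes. The study's limit on size, worked out from the edgeR fit, gave 1 lower of the 10 genes, beside 2.10% of all genes. The causes were not tested.

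Deviations from the group means correlated between same-numbered libraries at r = 0.14, -0.43 and 0.54 for replicates 1, 2 and 3, not positively in every pair. For shSQLE replicate 2 the highest correlation was with shControl replicate 1 (0.54). The deviations within a group are tied together by its mean. These values therefore cannot show whether same-numbered libraries were handled together, which the sources do not say. The replicate block gave 3 lower of the 10 genes (DDIT3, CREB3L2 and TRIB3) and 362 lower and 34 higher of 12450 genes.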
